A study of Rattus norvegicus with 138 samples.

Results

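The caudal ventrolateral medulla (CVLM) of the spontaneously hypertensive rat (SHR) was compared at 24 wk with the CVLM of the same strain at 8 wk, over all genes. The members are the CVLM libraries of 8 and 24 wk whose names end in 1, which are 5 at 8 wk and 5 at 24 wk, 10 of the 138 libraries of the series. All rats were female and from a commercial supplier, SHRs of the substrain SHR/NHsd and normotensive Wistar-Kyoto (WKY) rats of the substrain WKY/NHsd. SHRs are regarded as prehypertensive at 8 wk and as chronically hypertensive at 24 wk. The other CVLM libraries ending in 1 served for context, namely SHRs of 12 wk (5) and 16 wk (6) and WKY rats of 8 wk (2), 12 wk (3), 16 wk (3) and 24 wk (3). Some alternative fits also took the CVLM libraries ending in 2, which include SHRs and WKY rats of 10 wk. Libraries of 2 other nuclei of the same SHRs were used for comparison. A library was made from bilateral tissue punches of 1 rat, so that neurons and glia were measured together. The comparison asks which transcripts differ between the earliest and the latest age in this nucleus. Of the 8 wk libraries 1, replicate 5, carries an age label of 10 wk that goes against its title, and results are given with it. Ages within a strain differ in maturation as well as in blood pressure, and in SHRs these cannot be told apart.

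The CVLM receives baroreceptor signals by way of the solitary tract nucleus (NTS) and passes them on through GABAergic neurons that inhibit the presympathetic neurons of the rostral ventrolateral medulla (RVLM), and also holds noradrenergic neurons. The white matter around these neurons is formed by oligodendrocytes, which wrap axons in a membrane rich in cholesterol and galactolipids. Most brain cholesterol is made locally by the mevalonate and sterol pathway, and oligodendrocytes make it while they lay down myelin. Microglia are the resident phagocytes of the brain and take up and digest membrane debris.

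Total counts were 5904570 to 10680300 per library at 8 wk and 8827520 to 11920600 at 24 wk. Levels are given in CPM, the count divided by the normalized library size and scaled to a common total, which are not corrected for gene length, and differences as log2 fold changes of 24 wk against 8 wk with their standard error (SE). Th, the first enzyme of catecholamine synthesis, was at 87.7 to 141 CPM at 8 wk and 69.4 to 137 CPM at 24 wk. Dbh, which makes noradrenaline, was at 64.8 to 87.9 and 64.3 to 98.4 CPM. Gad1, which makes GABA, was at 158 to 177 and 157 to 181 CPM. Pnmt, the adrenaline-forming enzyme, was at 38.8 to 60.4 and 21.6 to 78.5 CPM. These levels are given without those of the other nuclei and do not check the region label. Mitochondrial genes took 6.93 to 10.3% of counts at 8 wk and 6.80 to 8.50% at 24 wk. The first principal component (41.7% of the variance) did not separate the ages. The 10 most abundant genes took 12.0 to 15.5% of counts at 8 wk and 10.7 to 12.1% at 24 wk, and the part of this shift in the results was not tested.

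Of 13408 genes tested, 54 (0.403%) differed, with adjusted p below 0.05 in the quasi-likelihood test of edgeR. In 16 of them (0.119%) the level was higher at 24 wk and in 38 (0.283%) lower. The genes that fell included 11 of 24 genes of cholesterol synthesis and 7 of 15 genes of myelin structure, and the genes that rose included 2 of 18 microglial genes. Of 16 tested genes of oligodendrocyte precursors and newly formed oligodendrocytes 2 fell, Gpr17 and Enpp6, and the median log2 fold change was -0.06. The call of Gpr17 was lost in each of the 10 fits with 1 library left out. The other 32 of the 36 gene lists examined held no gene called in this test. Levels of 36 of the 38 genes that fell and of all 16 that rose did not overlap between the rats of 8 and 24 wk (5 each). Over all tested genes, 1.16% were lower and 0.82% higher without overlap (1.98% together). The called genes were chosen on these same rats, so that their separation was favoured by the choice and adds no separate evidence. With each library left out in turn, between 42 and 54 genes were called, with 48 without the library of conflicting age label. These fits kept 38 to 47 of the 54 genes called in the main fit. When only the 10 libraries were fitted, without the other CVLM groups, 24 genes were called (4 higher, 20 lower), and DESeq2 called 108 (45 higher, 63 lower).

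The cholesterol pathway starts at acetyl-CoA and leads through mevalonate and lanosterol to cholesterol, and called genes were spread along it. Each of its 24 listed genes was tested, with 22 negative and 2 positive log2 fold changes and a median of -0.37, where the median over all tested genes was 0.01. Summed over the list, levels were 5251 to 6151 CPM at 8 wk and 4154 to 4558 CPM at 24 wk, so that the sums of the ages did not overlap. Acat2, which condenses acetyl-CoA, was lower at 24 wk by a log2 fold change of -0.37 ± 0.08 (SE) with an adjusted p of 0.0184 in edgeR's test.

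Hmgcs1 makes HMG-CoA, an early intermediate of the pathway. Its level was 1027, 823, 1109, 954 and 909 CPM in the rats of 8 wk and 616, 495, 597, 607 and 576 CPM in those of 24 wk. Every rat of 24 wk was below every rat of 8 wk, with a log2 fold change of -0.74 ± 0.10 (SE) and an adjusted p of 6.7e-05 in edgeR's test.

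Idi1, which isomerizes the first isoprenoid unit, was at 111, 93.0, 144, 135 and 110.1 CPM at 8 wk and at 65.2, 65.3, 69.1, 76.7 and 72.1 CPM at 24 wk. The spread narrowed from an SD of 20.5 to 4.87 CPM and the lowest rat of 8 wk was above the highest of 24 wk (log2 fold change -0.77 ± 0.11 SE, adjusted p = 0.000182 in edgeR's test). Sqle, the squalene epoxidase, fell by 0.40 ± 0.08 (SE) on the log2 scale, and Lss, which closes the sterol ring, by 0.56 ± 0.12 (SE).

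Cyp51 removes a methyl group from lanosterol and had the smallest p of the list. It was at 706, 626, 787, 709 and 660.2 CPM at 8 wk. It was at 384, 343, 444, 432 and 415 CPM at 24 wk. Its ages were far apart relative to the spread, from 698 ± 60.7 to 404 ± 40.9 CPM (SD, n = 5 each), with a log2 fold change of -0.79 ± 0.08 (SE) and an adjusted p of 1.16e-06 in edgeR's test. Of the later steps, Tm7sf2, Msmo1, Nsdhl and Dhcr7 fell, with log2 fold changes of -0.57, -0.37, -0.36 and -0.41. The rats of Msmo1 and Acat2 overlapped between ages, while those of the other 9 called genes of the list did not.

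Not all genes of the pathway passed the test. Hsd17b7, a reductase of a late step, and Stard4, a sterol carrier, were lower in every rat of 24 wk than in any of 8 wk but had adjusted p of 0.254 and 0.57 in edgeR's test. Srebf2, the transcription factor that activates these genes when sterols are scarce, had a log2 fold change of -0.07 ± 0.11 (SE). Insig1, which retains that factor's precursor in the endoplasmic reticulum, was at 312 ± 154 and 350.0 ± 89.8 CPM (SD, n = 5 each). At 8 wk Insig1 ran from 89.1 to 487 CPM. Calls of 4 genes were lost when single libraries were left out. These were Lss (without replicate 1, 2 or 3 of 8 wk or 1 or 2 of 24 wk), Acat2 (without 4 of 8 wk or 1, 2 or 5 of 24 wk), Tm7sf2 (without 3 of 8 wk or 1, 2 or 3 of 24 wk) and Msmo1 (in 7 of the 10 fits), with adjusted p up to 0.105, 0.0832, 0.0764 and 0.12. When only the 10 libraries were fitted, 5 of the 24 genes were called.

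**Figure D1:**
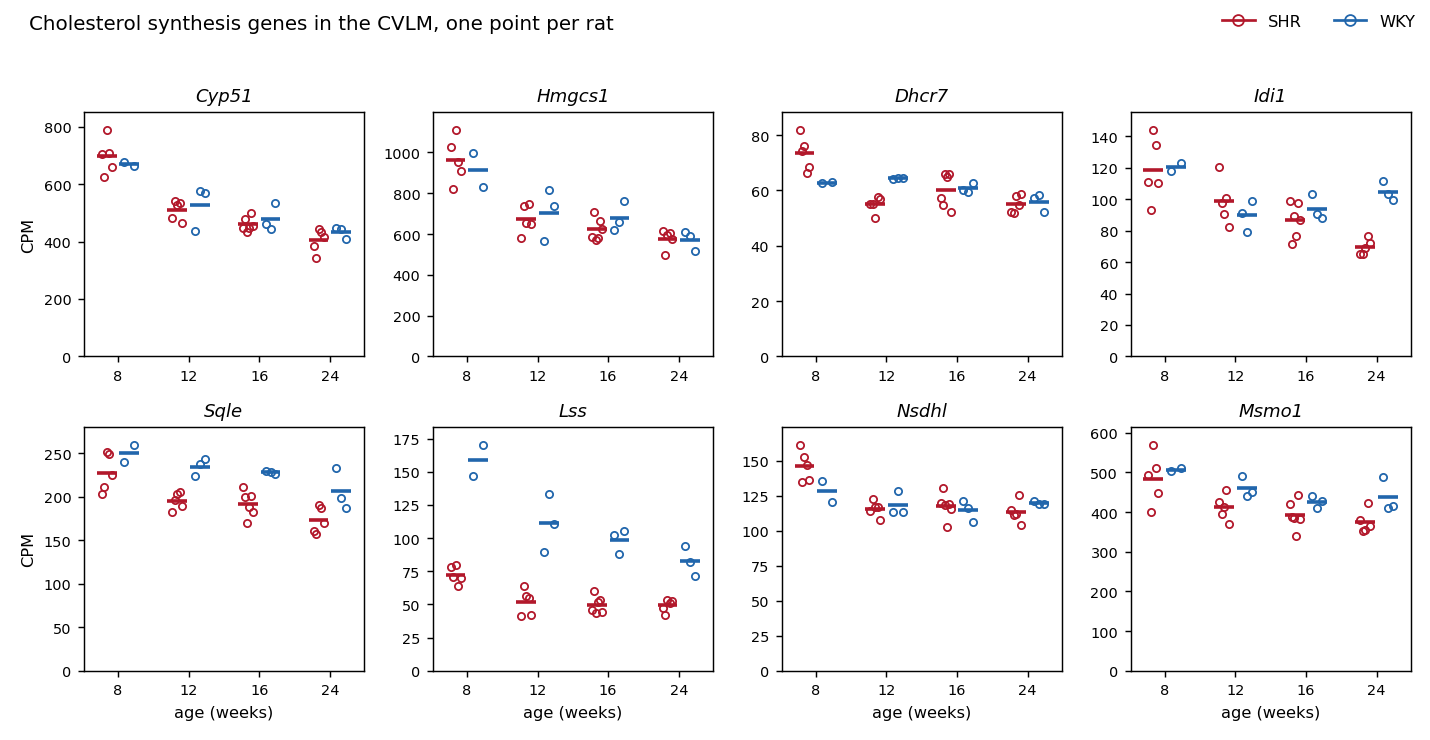
Levels in CPM (vertical axes, linear from 0) of 8 cholesterol synthesis genes against age in weeks (horizontal axes), with 1 point per rat and a bar at each group mean, SHRs in red and WKY rats in blue. Cyp51 means in SHRs went from 698 CPM at 8 wk over 510.5 and 460.2 to 404 CPM at 24 wk, and Idi1 in WKY rats was at 118 and 123 CPM at 8 wk and 99.8 to 112 CPM at 24 wk.

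Promoters are shown for 4 of the genes that fell. RefSeq promoters (build GRCr8, 250 bases before to 50 after the start) were matched for 17 of the 24 genes. The box CCAAT, the site of NF-Y, which acts with the sterol-sensing factor on this pathway, was searched on both strands after the sequences had been seen. It was present in 14 of the 17 (82.4%), against 37.7% of all 27457 promoters of this length, and at least 2 copies were in 10 (58.8%) against 11.5%. Among 9 matched genes that were called, 6 held it (66.7%), a lower share than in the 17. The sterol element TCACNCCAC was in none of the 17 and in 1.13% of all promoters. In the following lines bases are 5′ to 3′ on the gene's strand and capitals mark CCAAT or its reverse complement ATTGG. Hmgcs1 (chr2:53382054-53382353, plus strand) and Idi1 (chr17:66547475-66547774, minus strand) hold 2 each, Nsdhl (chrX:155817110-155817409, plus strand) holds 5, and Cyp51 (chr4:30991443-30991742, plus strand), the gene of the smallest p, holds none.
Hmgcs1: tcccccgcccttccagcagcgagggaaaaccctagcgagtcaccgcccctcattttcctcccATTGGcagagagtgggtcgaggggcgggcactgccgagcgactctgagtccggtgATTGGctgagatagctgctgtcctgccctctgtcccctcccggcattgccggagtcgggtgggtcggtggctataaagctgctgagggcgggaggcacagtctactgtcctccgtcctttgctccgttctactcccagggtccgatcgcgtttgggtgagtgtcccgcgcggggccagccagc
Idi1: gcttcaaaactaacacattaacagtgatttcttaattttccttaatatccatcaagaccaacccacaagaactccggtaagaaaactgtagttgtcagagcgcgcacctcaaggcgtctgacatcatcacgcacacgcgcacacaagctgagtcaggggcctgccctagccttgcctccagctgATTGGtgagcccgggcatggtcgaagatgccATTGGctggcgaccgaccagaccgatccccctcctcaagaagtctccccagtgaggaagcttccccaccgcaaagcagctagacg
Nsdhl: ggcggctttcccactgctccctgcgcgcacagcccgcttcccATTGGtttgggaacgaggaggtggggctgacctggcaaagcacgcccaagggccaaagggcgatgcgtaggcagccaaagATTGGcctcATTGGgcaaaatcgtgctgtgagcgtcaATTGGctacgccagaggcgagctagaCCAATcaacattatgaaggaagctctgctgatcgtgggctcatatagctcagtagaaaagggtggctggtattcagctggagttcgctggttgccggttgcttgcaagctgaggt
Cyp51: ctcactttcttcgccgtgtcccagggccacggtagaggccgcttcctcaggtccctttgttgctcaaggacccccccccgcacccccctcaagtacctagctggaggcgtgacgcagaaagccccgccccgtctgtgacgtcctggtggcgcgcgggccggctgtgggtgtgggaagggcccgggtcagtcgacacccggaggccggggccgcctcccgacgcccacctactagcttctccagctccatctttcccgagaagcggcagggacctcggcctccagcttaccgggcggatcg

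Of 15 tested genes of myelin structure 7 fell, and 12 of 15 log2 fold changes were negative with a median of -0.42. Summed levels were 55703 to 71936 CPM at 8 wk and 42265 to 54391 CPM at 24 wk, without overlap. In tissue punches, fewer oligodendrocytes and less RNA per oligodendrocyte cannot be told apart.

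Ugt8, which makes the galactolipid of myelin, showed the largest change of the list. It was at 935, 764, 1064, 916 and 842 CPM at 8 wk and at 475, 378, 484, 453 and 445 CPM at 24 wk. The rats of the ages were apart, with a log2 fold change of -1.02 ± 0.13 (SE) and an adjusted p of 6.7e-05 in edgeR's test.

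Cldn11, which forms the tight junctions of myelin, was at 105, 104, 127, 114 and 103 CPM at 8 wk and at 57.2, 69.7, 64.9, 75 and 71.9 CPM at 24 wk. Mal, a membrane sorting protein of myelin, was at 844 to 989 CPM at 8 wk and at 588 to 689 CPM at 24 wk. Both were apart between ages, with log2 fold changes of -0.71 ± 0.10 and -0.48 ± 0.07 (SE). Mobp, Mog and Cnp, other myelin proteins, had log2 fold changes of -0.56, -0.49 and -0.43 and adjusted p of 0.0033, 0.00496 and 0.00631 in edgeR's test.

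Mbp, a major protein of compact myelin, was at 30652 to 39461 CPM at 8 wk and 23912 to 33494 CPM at 24 wk, so that its ages overlapped (log2 fold change -0.30 ± 0.11 SE, adjusted p = 0.456 in edgeR's test). Mag, an adhesion molecule next to the axon, was apart between ages but had an adjusted p of 0.201 in edgeR's test. Opalin and Plekhb1 had log2 fold changes of 0.06 and 0.25. When only the 10 libraries were fitted, 4 of the 15 genes were called.

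Among 16 tested genes of oligodendrocyte precursors and newly formed oligodendrocytes, 2 were called and the median log2 fold change was -0.06. Gpr17, a receptor of precursors committed to differentiate, was at 7.61, 6.93, 6.63, 6.07 and 5.31 CPM at 8 wk and at 3.28, 1.94, 1.52, 2.71 and 3.35 CPM at 24 wk. Its log2 fold change was -1.34 ± 0.31 (SE) with an adjusted p of 0.0442 in edgeR's test, and the call was lost without any 1 of the 10 libraries (adjusted p 0.0522 to 0.168). Enpp6, a choline phosphodiesterase of oligodendrocytes in formation, was at 47.1 to 68.4 CPM at 8 wk and 26.4 to 38.3 CPM at 24 wk, and was called under each of the 18 alternatives tried. Pdgfra, the receptor that marks precursors, had a log2 fold change of -0.05, Cspg4 of -0.07 and Sox10, a factor of the whole lineage, of 0.09. Casr, the calcium-sensing receptor, had -1.24 ± 0.31 (SE) with an adjusted p of 0.0861 in edgeR's test and overlapping rats.

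**Figure D2:**
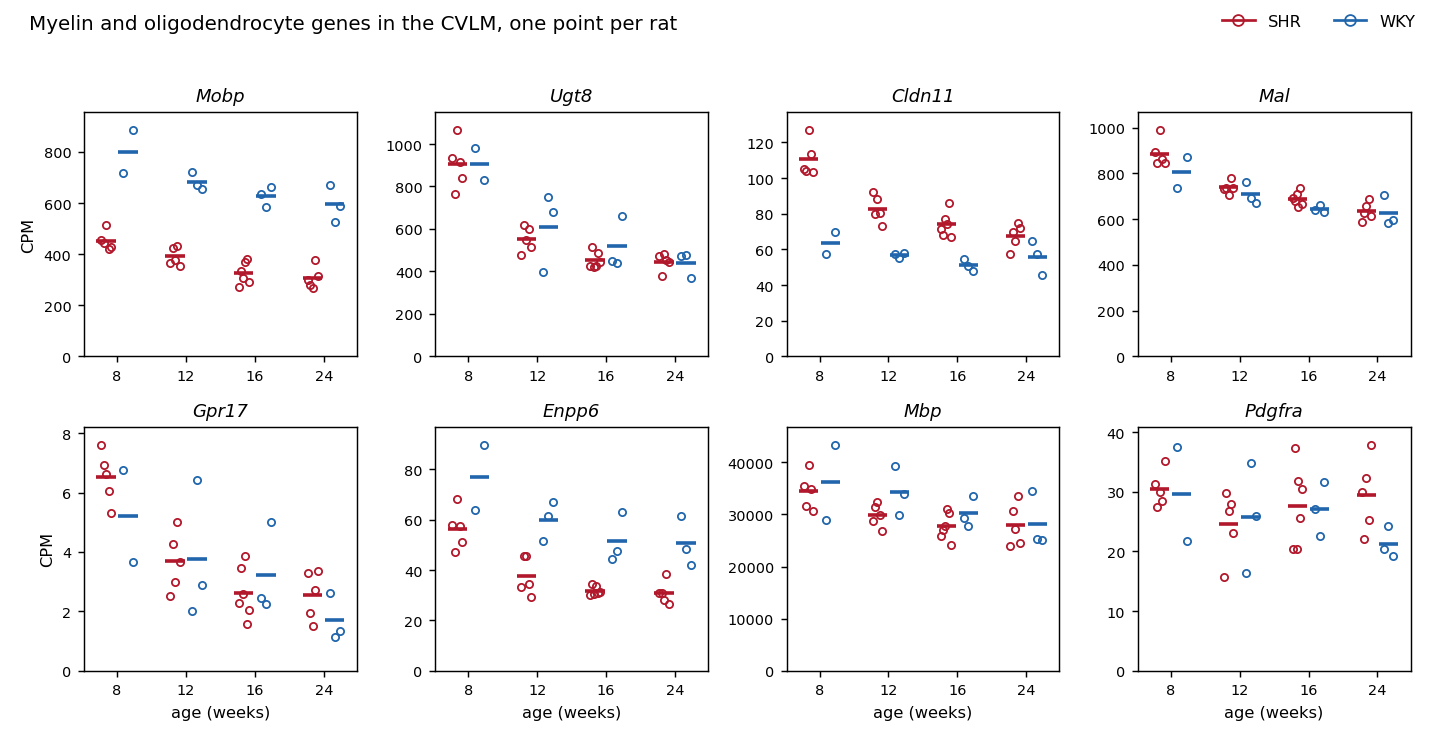
Levels in CPM (vertical axes, linear from 0) of 8 genes of myelin and of the oligodendrocyte lineage against age in weeks, with 1 point per rat and a bar at each group mean, SHRs in red and WKY rats in blue. Ugt8 means in SHRs were 904, 553, 453 and 447 CPM in order of age, while Pdgfra had a log2 fold change of -0.05.

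Other lipid genes that fell were named after their values had been seen. Elovl1, which lengthens very long chain fatty acids, had a log2 fold change of -0.63, Scd, a fatty acid desaturase, -0.71, Aacs, which activates acetoacetate for lipid synthesis, -0.65, and Agpat4, an acyltransferase of phospholipid synthesis, -0.40. Adjusted p were 0.000774, 0.0259, 6.7e-05 and 0.0258 in edgeR's test. Calls of Scd and Agpat4 were lost in 6 of the 10 fits with 1 library left out, with adjusted p up to 0.119 and 0.122.

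The smallest p of all genes belonged to Masp1, a protease of the lectin pathway of complement that was not on the complement list. It was at 90.8, 78.5, 91.6, 78.5 and 73.1 CPM at 8 wk and at 42.4, 41.2, 43.1, 46.8 and 26.8 CPM at 24 wk. The groups were apart, from 82.5 ± 8.25 to 40.0 ± 7.70 CPM (SD, n = 5 each), with a log2 fold change of -1.04 ± 0.10 (SE) and an adjusted p of 4.42e-07 in edgeR's test. Pnlip, a triglyceride lipase best known from the pancreas, was at 17.0 to 28.0 CPM at 8 wk and at 7.33 to 11 CPM at 24 wk (log2 fold change -1.29 ± 0.14 SE). Sema4d, a semaphorin made by oligodendrocytes, was at 132 to 184 and 77.0 to 104 CPM.

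Capn6, a calpain without protease activity, showed the most negative log2 fold change of the called genes (-1.56 ± 0.30 SE). It was at 3.64 to 6.82 CPM at 8 wk and 0.833 to 2.83 CPM at 24 wk. Rab7b, a small GTPase of endosomes, and Fgd3, an exchange factor for small GTPases, had log2 fold changes of -1.08 and -1.28. A mitochondrial locus that the table names only by a clone identifier had means of 26592 and 11225 CPM, with a log2 fold change of -1.24 ± 0.26 (SE) and an adjusted p of 0.0184 in edgeR's test. Its call was lost without replicate 1 or 3 of 8 wk or without replicate 2, 3 or 5 of 24 wk (adjusted p up to 0.0829), and that of Fgd3 without replicate 3 of 8 wk or 5 of 24 wk (up to 0.055). A further 2 called genes carry only a locus identifier.

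Genes of higher level at 24 wk were fewer. The smallest p among them was that of Qdpr, which regenerates tetrahydrobiopterin, the cofactor of tyrosine hydroxylase and nitric oxide synthase. It was at 1294, 1148, 1306, 1268 and 1165 CPM at 8 wk and at 2239, 2265, 2209, 2548 and 1935 CPM at 24 wk. All rats of 24 wk were above all of 8 wk, with a log2 fold change of 0.86 ± 0.10 (SE) and an adjusted p of 1.19e-05 in edgeR's test. Th and the other 11 tested genes of the catecholamine neuron list held no called gene, with a median log2 fold change of -0.06.

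Of 18 genes known from microglia, 2 rose. All 18 had a positive log2 fold change, with a median of 0.48, where 51.6% of all tested genes were positive. Summed levels were 446 to 565 CPM at 8 wk and 569 to 742 CPM at 24 wk, without overlap. Ctss, the lysosomal protease cathepsin S, was at 63.9, 50.6, 67.6, 49.4 and 50 CPM at 8 wk and at 67.8, 82.1, 85.6, 101 and 83.9 CPM at 24 wk. The lowest rat of 24 wk was barely above the highest of 8 wk, with a log2 fold change of 0.58 ± 0.12 (SE) and an adjusted p of 0.0180 in edgeR's test. Laptm5, a lysosomal membrane protein of blood-derived cells, was at 26.5 to 35.7 and 36.6 to 57.8 CPM, with a log2 fold change of 0.58 ± 0.12 (SE) and an adjusted p of 0.0219 in edgeR's test.

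These were the 2 called genes of the list. Its other 16 did not pass the test, among them Cx3cr1, the fractalkine receptor, at 0.49 ± 0.14 (SE), Csf1r, the receptor needed for microglial survival, at 0.39 ± 0.11, and Itgam, an integrin chain, at 1.01 ± 0.27. Rats of these 3 did not overlap between ages. P2ry12 and Tmem119, which mark microglia at rest, had 0.17 ± 0.11 and 0.03 ± 0.17 (SE). The call of Ctss was lost without the rats of replicate 2, 4 or 5 at 8 wk or replicate 4 at 24 wk, with adjusted p up to 0.0794, and that of Laptm5 without replicate 2, 4 or 5 at 8 wk or replicate 2, 4 or 5 at 24 wk, with adjusted p up to 0.108. When only the 10 libraries were fitted, 0 of the 18 were called, and DESeq2 called 4.

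Outside the list, Pld4, an endolysosomal nuclease of microglia, was at 25.8 to 40.6 CPM at 8 wk and at 41.5 to 60.9 CPM at 24 wk. Cd53, a tetraspanin of white blood cells, was at 9.15 to 13.5 and 14.9 to 20 CPM. Nfam1, an immune receptor, and Arhgap9, a GTPase-activating protein of blood cells, had log2 fold changes of 0.81 and 1.01. Calls were lost for Pld4 without replicate 2 or 4 at either age (adjusted p up to 0.0641), for Nfam1 without replicate 1 or 2 of 8 wk or 3 or 5 of 24 wk (up to 0.0812) and for Arhgap9 without replicate 1 of 8 wk (0.0512). Blood cell genes were examined beside them, and 0 of 5 tested were called, with summed levels of 434 to 920 and 359 to 930 CPM, which overlapped. The T cell genes Cd3e and Cd3g and the B cell genes Cd79b and Ms4a1 were below the filter.

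**Figure D3:**
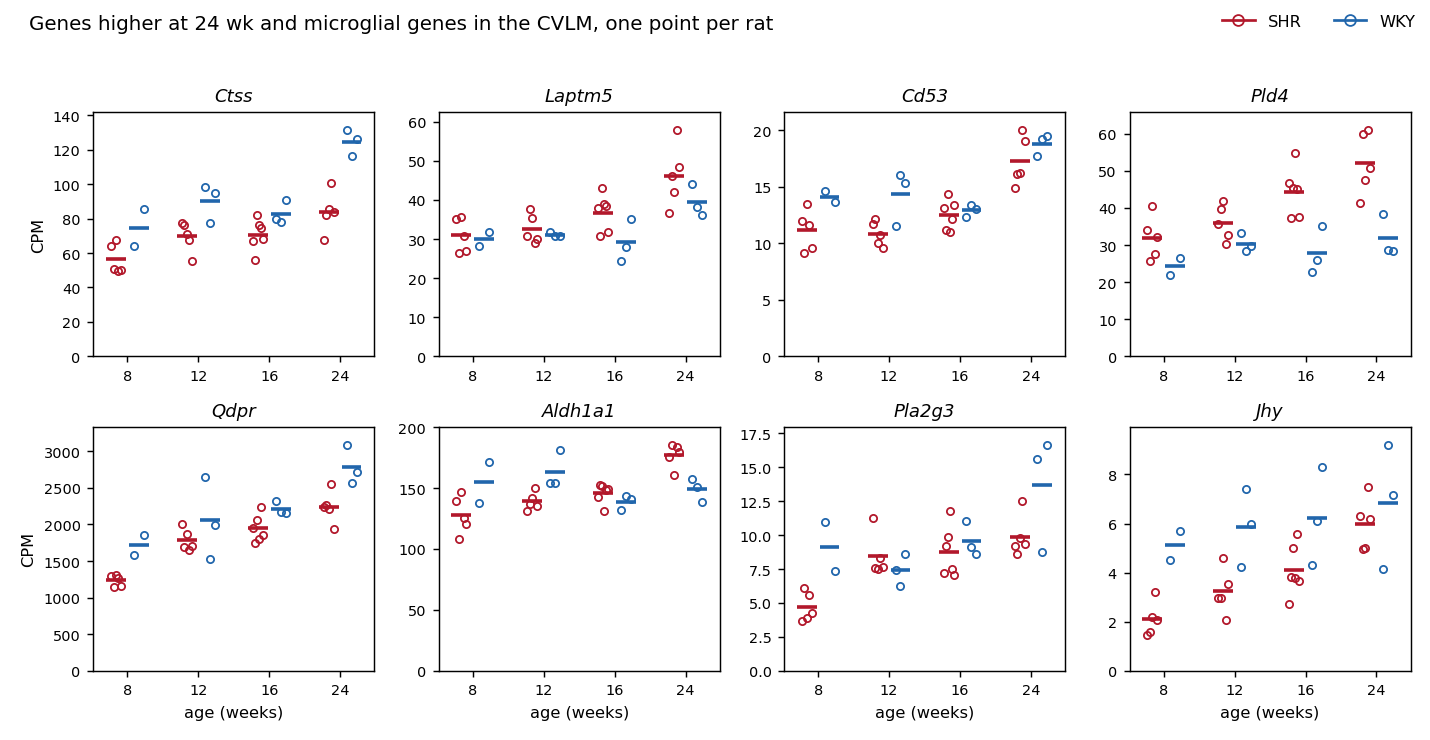
Levels in CPM (vertical axes, linear from 0) of 8 genes higher at 24 wk in SHRs against age in weeks, with 1 point per rat and a bar at each group mean, SHRs in red and WKY rats in blue. Qdpr means in SHRs were 1236, 1786, 1945 and 2239 CPM in order of age, and Aldh1a1 in WKY rats was at 138 and 171 CPM at 8 wk and 139 to 158 CPM at 24 wk.

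Jhy, needed for normal cilia of the ependyma, was at 1.44, 1.57, 2.21, 3.20 and 2.05 CPM at 8 wk and at 6.29, 4.98, 5, 7.50 and 6.17 CPM at 24 wk, for a log2 fold change of 1.53 ± 0.26 (SE). Of 12 tested genes of the ependyma and the motile cilium 0 were called and the median log2 fold change was -0.07. Foxj1, the master factor of motile cilia, was below the filter. Pla2g3, a secreted phospholipase, Acer2, a ceramidase, and Pbld1 had log2 fold changes of 1.07, 0.92 and 0.84, and the call of Acer2 was lost in 8 of the 10 fits with 1 library left out (adjusted p up to 0.145). Nat8f3, an acetyltransferase with near-identical family members between which reads can be split, had 1.40. Aldh1a1, which makes retinoic acid, was at 109 to 147 CPM at 8 wk and at 160.4 to 186 CPM at 24 wk (log2 fold change 0.47 ± 0.08 SE, adjusted p = 0.00183 in edgeR's test).

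In 32 of the 36 lists no gene was called in edgeR's test, and their median log2 fold changes ran from -0.19 to 0.28. Other fits called 1 gene in each of 4 of these lists. They were RT1-A1 of the MHC list (DESeq2), Kcnj14, a potassium channel of motor neurons (DESeq2, and all libraries with or without their final number as a term), Tnr, a matrix protein of the perineuronal net (only the 10 libraries), and Enpp2 of the choroid plexus list (all libraries with the number as a term). The lists without a call included the 24 tested genes of GABA and glycine transmission, with a median of -0.04 and Gabrb2, a GABA-A receptor subunit, at -0.53 ± 0.25 (SE, adjusted p = 0.735 in edgeR's test). Of 27 glutamate genes, 21 were negative and 0 called, and Grin2a, an NMDA receptor subunit, had -0.64 ± 0.30 (SE). The 29 genes of the renin-angiotensin system and other hypertension candidates split into 14 positive and 15 negative, and Edn1, the vasoconstrictor endothelin, was the one of smallest p with 0.59 ± 0.26 (SE, adjusted p = 0.618 in edgeR's test). Of 37 neuropeptide and receptor genes, 29 were negative and 0 called, and Cartpt, the CART peptide precursor, had -0.63 ± 0.19 (SE, adjusted p = 0.202 in edgeR's test) with rats of the ages apart. Median SE over all genes was 0.18 on the log2 scale. In simulated data of this design, log2 changes of 1 and of 0.75 were each placed in 100 genes of at least 2 CPM. Of these, 81% and 54% were called, so that smaller changes were often not detectable here. More genes were changed in the simulation than were called in the data, which eases calling, and no changes were placed in genes below 2 CPM.

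Of the complement genes, 15 of 20 were positive and 0 called. C3, the central component, was at 3.54 to 4.99 CPM at 8 wk and at 7.84, 34.7, 13.3, 14 and 11.6 CPM at 24 wk, for a log2 fold change of 1.90 ± 0.61 (SE) and an adjusted p of 0.318 in edgeR's test. Of 17 tested MHC genes 14 were positive and 0 called in edgeR's test. RT1-A1, a class I chain, had 0.40 ± 0.10 (SE, adjusted p = 0.116 in edgeR's test), and passed with DESeq2 (adjusted p = 0.0194) and in edgeR's test without replicate 3 of 8 wk (adjusted p = 0.0468). Of 22 interferon-induced genes 7 were positive and 0 called.

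Markers of neighbouring tissue were examined beside the called genes. Of 8 tested choroid plexus genes 0 were called, but their summed levels did not overlap, at 358 to 437 CPM at 8 wk and 252 to 350 CPM at 24 wk. Enpp2, which oligodendrocytes also make, entered this sum with 338 to 420.3 and 239.9 to 325 CPM (log2 fold change -0.34 ± 0.10 SE, adjusted p = 0.195 in edgeR's test). Ttr, the defining choroid plexus transcript, was at 0 to 1.69 CPM at 8 wk and 0 to 2.07 CPM at 24 wk. Summed levels of the Hox genes, which mark the position along the medulla, were 110 to 136 and 135 to 146 CPM. Their part in the results was not tested. Astrocyte genes (15 tested), endothelial genes (15) and genes of pericytes and vascular muscle (13) held no called gene and had medians of 0.05, 0.01 and 0.04.

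**Figure D4:**
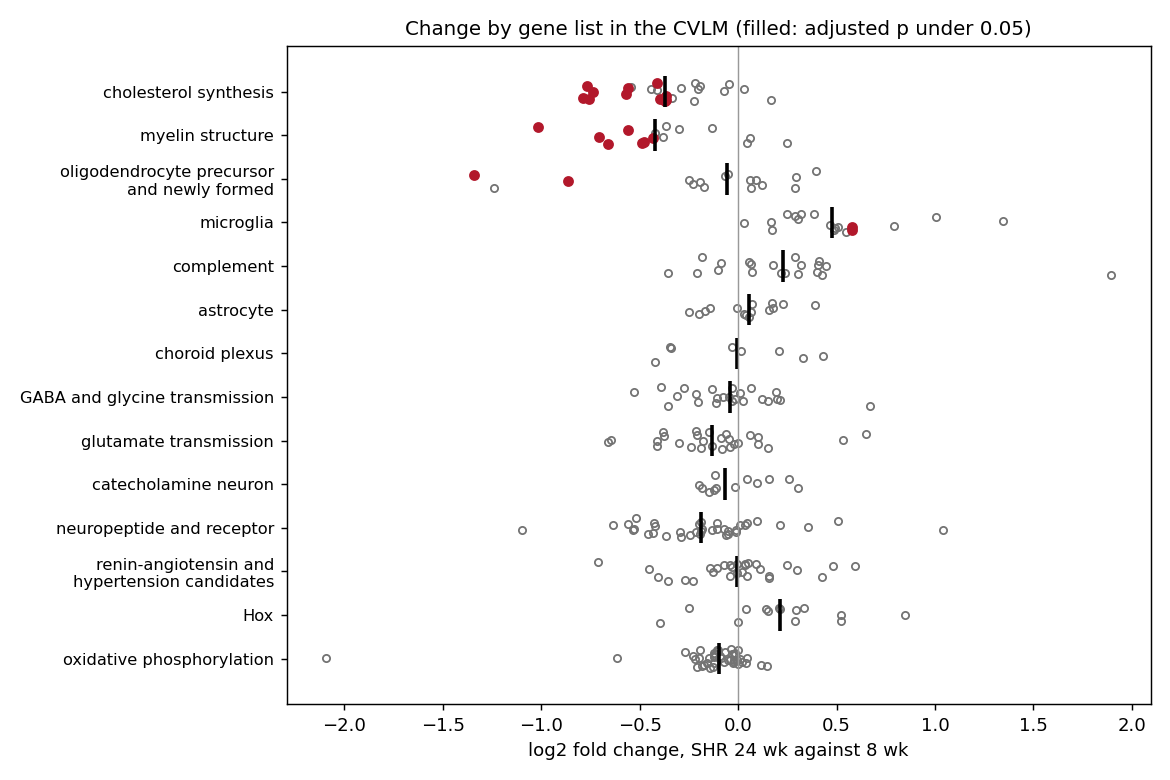
Log2 fold changes of 24 wk against 8 wk in the CVLM of SHRs (horizontal axis) for every tested gene of 14 gene lists (rows, with points spread vertically for legibility), with filled points at an adjusted p under 0.05 and a black bar at each median. The medians of cholesterol synthesis and myelin structure lie at -0.37 and -0.42, that of microglia at 0.48.

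The intermediate ages were compared with the same 5 rats of 8 wk, so that these contrasts share their control libraries with the main one and are given side by side. At 12 wk 11 genes (0.082%) were called and at 16 wk 35 (0.261%). DESeq2 called 35 and 80. At 12 wk 24 genes were called with all libraries and their final number as a term, and 0 when only the groups compared were fitted. Of the 38 genes that fell from 8 to 24 wk, 38 were below the mean of 8 wk at 12 wk, 35 went further down from 12 to 16 wk and 30 from 16 to 24 wk. Their median log2 fold change was -0.43, -0.56 and -0.66 at the later ages, and 8 and 26 of them were called at 12 and 16 wk. Genes of both directions were chosen at 24 wk, which favours a larger change at that age than at 12 or 16 wk. The choice also used the rats of 8 wk, which favours changes of the same sign at 12 and 16 wk. Shares of all tested genes for these steps are not given here. Ugt8 was at 904 ± 112 CPM (SD, n = 5) in the youngest rats, and at 553 ± 59.0 (n = 5), 453 ± 39.2 (n = 6) and 447 ± 41.8 CPM (n = 5) in those of 12, 16 and 24 wk. Of the 16 genes that rose, 1 was called at 12 wk and 3 at 16 wk, and median log2 fold changes were 0.34, 0.43 and 0.83. Cd53 was at 11.2, 10.9, 12.5 and 17.3 CPM on average at the 4 ages. The count at 12 wk rested on single rats, with 0 calls without replicate 3 of 8 wk or without replicate 1 of 12 wk, 1 without replicate 3 and 4 without replicate 5 of 12 wk, and 6 and 2 without replicates 1 and 4 of 8 wk. That at 16 wk was 23 without replicate 3 of 8 wk.

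WKY rats of 24 wk were compared with WKY rats of 8 wk in the same model, to ask whether the normotensive strain changed with age as well. The contrast has 3 rats against 2, and 17 genes were called (0.127%, 4 higher and 13 lower). The count depended on the model, with 105 by DESeq2 (46 higher, 59 lower) and 0 when only the 5 rats were fitted. With all libraries, whatever their final number, 1831 genes were called and the balance turned (1226 higher, 605 lower), and with that number as a term 217 (114 higher, 103 lower). The added libraries include WKY rats of 8 wk but not of 24 wk, so that age and final number are mixed in the count of 1831. Counts fell to 0 without replicate 2 of 8 wk or without replicate 2 or 3 of 24 wk, were 3 without replicate 1 of 8 wk and rose to 34 without replicate 1 of 24 wk. All 38 genes that fell in SHRs had a negative log2 fold change in WKY rats, with a median of -0.40, and 9 of them were called there. Over all tested genes 6584 of 13408 were negative. Ugt8 was at 979.8 and 832 CPM in the WKY rats of 8 wk and at 474, 478 and 368 CPM in those of 24 wk (log2 fold change -1.04 ± 0.19 SE, adjusted p = 0.0282 in edgeR's test). Cyp51 was at 676 and 663 CPM and at 449, 444 and 408 CPM, and Masp1 at 60.1 and 59.9 CPM and at 37.1, 35.8 and 36.5 CPM. In these 3 genes the ages of WKY rats did not overlap. With 3 rats against 2 such separation is easily reached by chance, and its share over all genes is not given here. Lss was higher in WKY rats at both ages, with means of 158.7 and 82.4 CPM against 72.5 and 49.2 CPM in SHRs, a strain difference that was not tested here. Of the 16 genes that rose in SHRs, 14 were positive in WKY rats, with a median of 0.50 and Qdpr as the called one (0.70 ± 0.15 SE, adjusted p = 0.0496 in edgeR's test).

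The difference between the strains in this change was tested by the interaction of strain and age. In edgeR's test 0 of 13408 genes were called, with 895 at an unadjusted p under 0.05, while DESeq2 called 2, and edgeR 2 without replicate 1 of the WKY rats of 8 wk. With all CVLM libraries, whatever their final number, edgeR called 269 (65 higher, 204 lower), and with that number as a further term 0. In the fit without the term, age and final number are mixed in WKY rats. For Ugt8 the change in SHRs minus that in WKY rats was 0.02 ± 0.23 (SE) on the log2 scale, for Hmgcs1 -0.06 ± 0.18 and for Cyp51 -0.16 ± 0.14. With SEs of this size, differences of that order on the log2 scale were not detectable. The 54 called genes were chosen by their change in SHRs, which is part of the strain difference. This favours larger changes in SHRs than in WKY rats. Of the 54 called genes 9 had an unadjusted p under 0.05, each with an adjusted p of 0.731 in edgeR's test. Of these, named after their values had been seen, Aldh1a1 had a change of 0.47 in SHRs and -0.05 in WKY rats (difference 0.52 ± 0.14 SE). Idi1 had -0.77 and -0.20 (difference -0.57 ± 0.19 SE), Cldn11 -0.71 and -0.19 (difference -0.51 ± 0.17 SE) and Jhy 1.53 and 0.42 (difference 1.11 ± 0.43 SE). Over all genes, the smallest p were those of an unnamed locus, of Calm2, a calmodulin gene, at -0.64 ± 0.16 (SE) and of Orc6, a subunit of the replication origin complex, at -0.83 ± 0.21 (SE), with adjusted p of 0.731 in edgeR's test. Calm2 had 0.04 in SHRs and 0.68 in WKY rats.

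The NTS and RVLM of the same SHRs were used to ask whether the change was particular to the CVLM. In the NTS 23 of 13793 genes (0.167%) and in the RVLM 30 of 13411 (0.224%) were called between 24 and 8 wk. All 38 genes that fell in the CVLM had negative log2 fold changes in both, with medians of -0.55 and -0.56, and 13 were called in each. Over all tested genes 6390 of 13274 and 5931 of 13183 were negative. Of 15 genes that rose and were tested there, 14 and 15 were positive, with medians of 0.37 and 0.44, but 1 and 3 were called. Their change was larger than in the CVLM in 0 and 1, and that of the 38 genes that fell in 13 and 12. All these genes were chosen by their call in the CVLM, which favours smaller changes elsewhere. The nuclei come from the same rats, which favours the same sign in each, so that the shared signs are not independent evidence. Ugt8 had -1.02 in the CVLM, -1.09 in the NTS and -0.74 in the RVLM, and Pnlip -1.29, -1.31 and -1.42.

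In 1 model over both regions with the rat as a block, 0 genes differed in their change between the CVLM and the NTS, with 3.73% of 13274 at an unadjusted p under 0.05, 0 calls by DESeq2 and 1 call without replicate 3 of 24 wk. Between the CVLM and the RVLM 0 were called in edgeR's test, with 3.74% of 13183 at an unadjusted p under 0.05, and DESeq2 called 2. Masp1 was among the 3 genes of smallest p against the RVLM, with a log2 difference of -0.73 ± 0.18 (SE). Masp1 had -1.04 in the CVLM, -0.74 in the NTS and -0.31 in the RVLM. Others of smallest p were Zc3hav1, an antiviral zinc finger protein (-0.86 ± 0.18 SE), and Dnah12, a dynein of motile cilia (-1.89 ± 0.46), against the NTS, and Hba-a2, an alpha globin (0.91 ± 0.22), and Zkscan2 (-1.43 ± 0.36) against the RVLM. Each of these 5 had an adjusted p of 1 in edgeR's test.

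**Figure D5:**
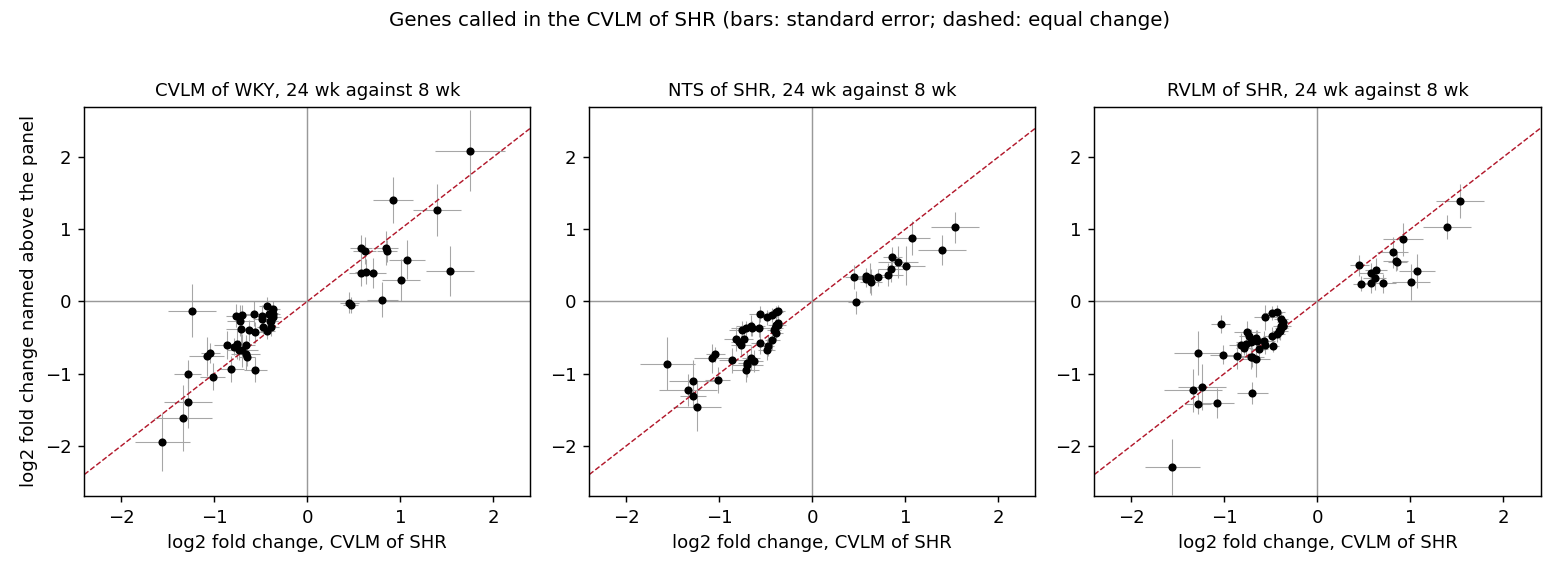
Log2 fold changes of 24 wk against 8 wk of the genes called in the CVLM of SHRs (horizontal axes) against those in the CVLM of WKY rats (54 genes), the NTS of SHRs (53) and the RVLM of SHRs (53) (vertical axes), with SE bars and a dashed line of equal change. Points in the lower left are the genes that fell in the CVLM, and all 38 of them lie below 0 in each panel.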

How the data were processed

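RNA from CVLM punches of single female SHRs and WKY rats was sequenced by the authors, who aligned reads with STAR 2.6.1 to rn6 and estimated counts per gene with RSEM 1.3.1. The deposited tables hold expected counts without normalization, which were rounded to whole numbers here. Of the values, 4.95% were not whole. The study's methods adjust for batches with ComBat_seq, and whether this preceded the deposit is not given in the sources used here, nor is the meaning of the final 1 or 2 of the library names. The main fits used only libraries ending in 1, so that replicate 6 of the SHRs of 24 wk, which ends in 2, was left out of them.

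Genes with a regularized log2 value of at least 3.5 in any CVLM library, whatever its final number, were kept (13408 of 32883). All 32 CVLM libraries ending in 1 entered 1 fit by group with edgeR 4.0.16 (R 4.3.3, limma 3.58.1). It used TMM scaling and the robust quasi-likelihood test, which calls a gene at a Benjamini-Hochberg adjusted p under 0.05. SEs were computed from the log2 fold change and its F statistic. CPM use TMM-scaled library sizes. The interaction of region and age was fitted over both regions with the rat as a block. Replicates are different rats, and replicate numbers were not used to pair ages. The alternatives were DESeq2 1.42.0, other size factors, filters, sets of libraries and thresholds, and each library left out. The steps were tested on simulated data of the comparison of SHRs of 24 and 8 wk, over 13408 genes.

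The named genes are the 12 that rose most and the 12 that fell most among called genes with a symbol and a mean of at least 2 CPM, up to 4 called genes per list or else the 2 of smallest p, and the 3 of smallest p per interaction. Other genes were named after their values were seen. The members and the gene lists were chosen with earlier results of these data known. Genes in near-identical families can share reads, and RSEM splits such reads. Promoters are from RefSeq (GRCr8), and no coordinates of rn6 were used. Some genes of the lists are counted but not reported here by name.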

Additional observations from a re-analysis of the deposited data

Results flagged for a closer look

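In 14 of 250 groups of 5 SHR libraries examined, 1 rat lay apart from the other 4 by Dixon's criterion at the 95% level, which chance alone does for about 1 in 20 groups. Among called genes, Aacs was at 170.5 CPM in replicate 3 of 8 wk and at 139.9 to 145 CPM in the others. Masp1 was at 26.8 CPM in replicate 5 of 24 wk and at 41.2 to 46.8 CPM in the others. Nat8f3 was at 4.97 CPM in replicate 3 of 8 wk, where the others were at 2.02 to 2.49 CPM. Acat2 was at 153 CPM in replicate 4 of 24 wk, against 111 to 119 CPM.

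Among genes that were not called, C3 was at 34.7 CPM in replicate 2 of 24 wk and Itm2a at 140.3 CPM in the same rat, with the others at 7.84 to 14 and 172 to 182 CPM. Replicate 4 of 24 wk held Isl1 at 5.10 CPM (others 2.16 to 2.93) and Slc6a4 at 2.19 CPM (others 0). Grin2a was at 7.85 CPM in replicate 5 of 24 wk (others 3.54 to 4.78), Orc6 at 11 CPM in replicate 3 of 24 wk (others 13.2 to 13.8) and Ndufa1 at 2.33 CPM in replicate 1 of 24 wk (others 0 to 0.506). At 8 wk, Prlr was at 0.674 CPM in replicate 4 (others 1.20 to 1.33), Sstr1 at 13.6 CPM in replicate 3 (others 8.76 to 9.94) and Hoxc4 at 8.92 CPM in replicate 1 (others 14.8 to 16.9).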

How the results depend on the processing

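All 54 called genes had the same sign of change under each of the 18 alternatives, and 18 of them were called under all 18. The count of 54 became 108 with DESeq2's Wald test, 87 with all libraries whatever their final number, 101 with that number as a term, 24 with only the groups compared (21 of the 54), 8 with the adjusted p no higher than 0.01 and a log2 change of 1 or more, and 34 when the study's fold threshold was added. It was 58 with DESeq2 size factors, 50 with no filter and 55 with edgeR's own filter. The count of 11 at 12 wk became 35 with DESeq2, 24 with the number as a term and 0 with only the groups compared, and that of 35 at 16 wk 80 with DESeq2. The 17 in WKY rats became 105 with DESeq2, 1831 with all libraries, 217 with the number as a term and 0 with only the groups compared. The 0 of SHRs against WKY rats became 2 with DESeq2 and 269 with all libraries, and the 0 of the CVLM against the RVLM became 2 with DESeq2. In WKY rats the libraries ending in 2 include 8 wk but not 24 wk. The cause of these shifts was not tested. With 1 library left out, counts ran from 42 to 54 for 24 wk, 0 to 13 for 12 wk, 23 to 48 for 16 wk, 0 to 34 for WKY rats, 0 to 2 for the strain difference, 0 to 1 against the NTS and 0 to 0 against the RVLM. Where this leaves 1 WKY rat of 8 wk, that rat is assumed to vary like the other groups.

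With the replicate number as a block, 51 genes were called at 24 wk, 8 at 12 wk, 24 at 16 wk, 14 in WKY rats and 0 for the strain difference. The numbers were checked for pairing by the correlation of deviations from the group means, which was 0.023 to 0.455 over 5 pairs, with 1 rat closest to its own number, so that the numbers were not taken to pair rats. Depths of 5904570 to 11920600 counts limit the genes of a few CPM.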
